A study of Mus musculus with 9 samples.

Results

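Albumin and 7 other carrier and inhibitor proteins of the blood plasma (Alb, Ahsg, Fetub, Gc, Ttr, Rbp4, Ambp and Afm) were followed through 9 RNA-seq libraries of a mouse pancreatic neuroendocrine tumour line. The 8 genes were taken by symbol from a table of 21944 protein-coding genes, and each matched exactly 1 row. No cut-off on level was used to choose them, but earlier results of these data were known when they were chosen. In the liver metastases Alb, Ahsg, Gc and Afm stood far above every subcutaneous tumour, whereas Ttr, Rbp4, Ambp and Fetub were already abundant under the skin and were at most 2.81 times as high in the metastases by group means. Thus 5 genes were read in all 6 subcutaneous tumours at 1 FPKM or more (Ttr, Rbp4, Ambp, Fetub and Gc), 2 reached that level only in the metastases (Ahsg and Afm), and Alb lay between.

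Carrier proteins of plasma are secreted by hepatocytes and bind ligands that are poorly soluble or that must be kept from being lost in urine. Albumin binds fatty acids, bilirubin and many drugs and sustains the osmotic pressure of plasma, and its relatives Afm and Gc bind vitamin E and vitamin D. Ttr and Rbp4 circulate as 1 complex that delivers thyroxine and retinol. Some of these genes are also transcribed outside the liver: Ttr and Gc in islet endocrine cells and Rbp4 in fat.

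The study asked whether RHAMMB promotes the spread of pancreatic neuroendocrine tumours. The parental line N134, or its derivative N134-RHAMMB, was put into immunodeficient NSG mice (NOD.Cg-PrkdcscidIl2rgtm1Wjl/SzJ), either under the skin or into a tail vein. There were 3 subcutaneous tumours of N134 (numbered 1, 2 and 3), 3 of N134-RHAMMB (numbered 1, 2 and 4) and 3 liver metastases of N134-RHAMMB (numbered 1, 2 and 3). No metastasis of N134 was included, so organ, injection route and any change of the tumour cells cannot be told apart in the metastases, and each line is a single line. Host age was not given in the sources used here, nor whether the libraries of a group came from separate animals, so that p-values measure the spread between these libraries, which may be technical.

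Values are FPKM, fragments per transcript length scaled to the mapped fragments of the library, so levels can be set side by side between genes. The table holds no read counts. The spacing of the lowest values gave an estimated depth of 14.7 to 18.3 M fragments per library, at which 1 fragment in a 2 kb transcript is worth 0.0273 to 0.0340 FPKM. All 10 beta cell markers examined stood at 1 FPKM or more in every subcutaneous tumour and 9 of 10 did so in every metastasis, with summed levels of 29519 to 46642 FPKM. Ins2 was the largest part of these sums, at 21154 to 38504 FPKM. The exception, Ucn3, was 0.498, 22.4 and 0.555 FPKM in metastases 1, 2 and 3. The skeletal muscle gene Ckm was 10.2 FPKM in N134-RHAMMB tumour 2 and 16.02 FPKM in tumour 4, and at most 0.0582 FPKM elsewhere. Mouse Hmmr, the gene of the RHAMM protein, cannot serve as a check of RHAMMB, whose construct is not described in the sources used here; it ranged over 39.2 to 44.9 FPKM for N134, 49.2 to 51.3 FPKM for N134-RHAMMB under the skin and 36.0 to 43.3 FPKM for the metastases.

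The promoters of 4 of these genes are shown because they are pairs of relatives on 1 chromosome (Alb with Afm, Ahsg with Fetub) that were read at unlike levels. Sequences are from RefSeq, build GRCm38.p6, from 250 bases before to 50 bases after a transcription start, 5′ to 3′ on the strand of the gene. 7 of the 8 genes had an entry, and Ttr had none. Alb lies on the plus strand of chromosome 5 (window chr5:90460620-90460919) and Afm downstream of it on the same strand (chr5:90518699-90518998). Ahsg (chr16:22891765-22892064) and Fetub (chr16:22918132-22918431, the more upstream of its 2 entries) are both on the plus strand of chromosome 16. Capitals mark TATAAA, the TATA box.
Alb: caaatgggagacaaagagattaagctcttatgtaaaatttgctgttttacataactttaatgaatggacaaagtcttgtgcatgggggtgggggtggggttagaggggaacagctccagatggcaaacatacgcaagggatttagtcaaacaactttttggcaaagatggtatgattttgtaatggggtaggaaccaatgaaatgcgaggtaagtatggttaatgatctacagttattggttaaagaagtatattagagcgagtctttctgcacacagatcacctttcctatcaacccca
Afm: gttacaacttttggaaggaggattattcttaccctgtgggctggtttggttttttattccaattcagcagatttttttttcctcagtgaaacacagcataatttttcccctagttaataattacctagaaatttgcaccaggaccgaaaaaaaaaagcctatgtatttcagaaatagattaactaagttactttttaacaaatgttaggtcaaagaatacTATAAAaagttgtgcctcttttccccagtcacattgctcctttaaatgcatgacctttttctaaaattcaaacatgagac
Ahsg: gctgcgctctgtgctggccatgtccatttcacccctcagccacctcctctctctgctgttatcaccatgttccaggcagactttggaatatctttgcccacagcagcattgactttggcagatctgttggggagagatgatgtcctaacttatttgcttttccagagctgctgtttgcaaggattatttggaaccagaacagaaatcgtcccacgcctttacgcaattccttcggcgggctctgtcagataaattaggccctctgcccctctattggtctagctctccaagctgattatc
Fetub: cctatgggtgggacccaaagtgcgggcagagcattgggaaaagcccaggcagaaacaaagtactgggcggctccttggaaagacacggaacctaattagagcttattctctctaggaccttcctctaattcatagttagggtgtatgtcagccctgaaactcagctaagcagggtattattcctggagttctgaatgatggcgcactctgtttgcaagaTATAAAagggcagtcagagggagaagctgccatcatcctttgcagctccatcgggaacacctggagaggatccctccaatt

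The TATA box letters, searched on both strands, began at position -31 in Fetub, -30 in Afm and -28 in the downstream Rbp4 window, counted from the start of transcription. They occur in 13.6% of 32851 promoters of that length. In each printed pair 1 gene held the letters and its relative, Alb or Ahsg, did not. TGTTTAC, the core bound by FOXA factors, was in the second Fetub window and reversed in the upstream Rbp4 window, against 3.65% of all promoters. The longer C/EBP letters TTGCGCAA and HNF4 letters CAAAGTCCA, in 0.183% and 0.475% of all promoters, were in none of the 9 windows. The windows of Alb, Gc, Ahsg and Ambp held none of these 4 motifs. The HNF1 letters GTTAAT were left out of this search, and their share of all promoters was not computed. These letters can be read in the windows of Alb, Gc and Afm, so a window without the 4 motifs can still hold letters of a liver factor. A match describes letters only and is not evidence of binding.

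**Figure D1:**
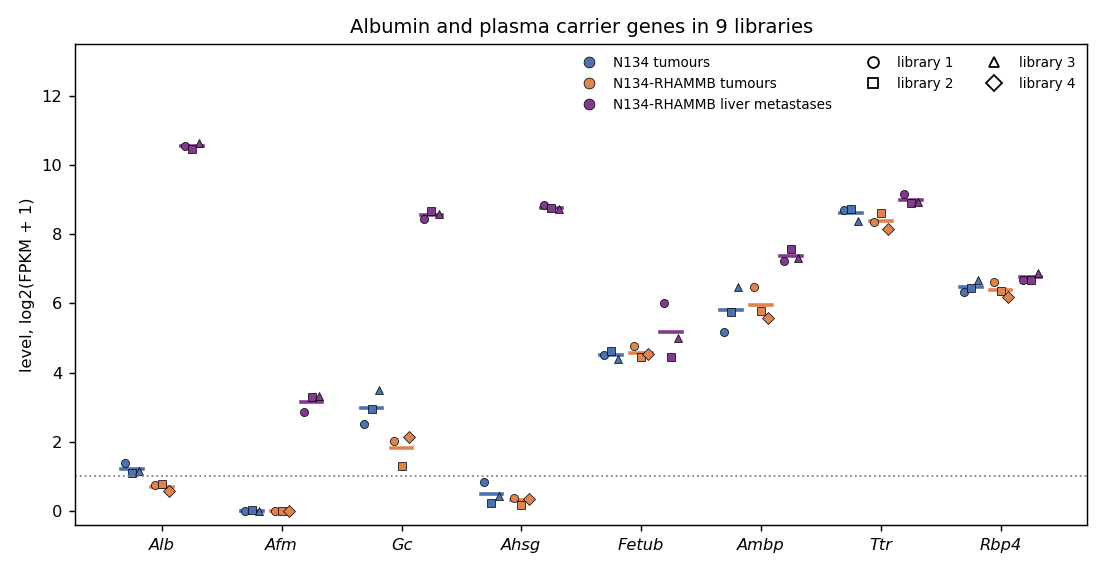
Level of each gene in each library as log2(FPKM + 1), grouped as subcutaneous tumours of N134 and of N134-RHAMMB and liver metastases. Points are libraries (circle 1, square 2, triangle 3, diamond 4), short lines are group means of the log2 values and the dotted line is 1 FPKM. Alb, Ahsg, Gc and Afm stand far higher in the metastases, and Ttr and Rbp4 lie high in every group.

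Alb, the most abundant plasma protein, was low in the subcutaneous tumours and among the highest genes of the metastases. N134 tumours 1, 2 and 3 held 1.60, 1.14 and 1.25 FPKM, and N134-RHAMMB tumours 1, 2 and 4 held 0.685, 0.720 and 0.481 FPKM. These levels correspond to an estimated 54, 39 and 40 fragments and to 21, 22 and 14 fragments. In metastases 1, 2 and 3 it was 1504, 1410.4 and 1609 FPKM, so that no metastasis came near any tumour under the skin. By group mean it ranked 15 of 21944 genes in the metastases, against 11901 in N134 and 12849 in N134-RHAMMB tumours. The difference between metastases and N134-RHAMMB tumours was 9.86 ± 0.12 on the log2(FPKM + 1) scale (SE, n = 3 and 3; limma adjusted p = 2.31e-11), a scale that understates changes of low genes. Against N134 tumours it was 9.34 ± 0.12 (limma adjusted p = 3.96e-11). The 3 N134 tumours all lay above the 3 N134-RHAMMB tumours, but the difference of -0.51 ± 0.12 did not pass the test (limma adjusted p = 0.148).

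Afm, the vitamin E binding protein afamin, was listed at 0 in N134 tumours 1 and 3 and in all 3 N134-RHAMMB tumours, and at 0.0297 FPKM, about 1 estimated fragment, in N134 tumour 2. The metastases held 6.28, 8.88 and 8.97 FPKM, an estimated 267, 401 and 372 fragments. No fold is given against a group listed at 0. The limma adjusted p was 2.02e-07 against N134-RHAMMB and 2.10e-07 against N134 tumours. Afm passed the filter of 1 FPKM in 3 libraries only through the metastases and so had to differ. Afm was thus far lower than its neighbour Alb in the metastases, at 0.535% ± 0.108 of the Alb level (SD, n = 3).

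Gc, the vitamin D binding protein, was read in every subcutaneous tumour. N134 tumours held 4.71, 6.76 and 10.2 FPKM against 3.09, 1.46 and 3.41 FPKM for N134-RHAMMB, so that the highest N134-RHAMMB tumour lay below the lowest N134 tumour. The difference of -1.16 ± 0.26 log2 units did not pass (limma adjusted p = 0.136). Metastases 1, 2 and 3 held 345, 408 and 385 FPKM, above all 6 tumours, and were higher than N134-RHAMMB tumours by 6.74 ± 0.26 log2 units (limma adjusted p = 3.00e-08) and than N134 tumours by 5.58 ± 0.26 (limma adjusted p = 1.29e-07). Gc is also a known transcript of pancreatic alpha cells. The alpha cell hormone gene Gcg spanned 3.47 to 4.57 FPKM for N134, 5.86 to 18.1 FPKM for N134-RHAMMB under the skin and 1.20 to 4.26 FPKM for the metastases, and its part in the Gc level was not tested.

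The fetuins are cystatin-like proteins secreted by the liver. Ahsg (fetuin-A, an inhibitor of ectopic calcification) gave 0.796, 0.168 and 0.351 FPKM for N134 and 0.312, 0.136 and 0.284 FPKM for N134-RHAMMB under the skin, an estimated 3 to 20 fragments per library. The 2 groups overlapped, with a difference of -0.19 ± 0.17 log2 units (limma adjusted p = 0.689). Ahsg passed the filter of 1 FPKM in 3 libraries only through the metastases, so it had to differ there. In the metastases it was 459, 431 and 421 FPKM, which is 8.46 ± 0.17 log2 units above N134-RHAMMB tumours (limma adjusted p = 4.85e-10) and 8.27 ± 0.17 above N134 tumours (limma adjusted p = 5.48e-10).

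Fetub (fetuin-B, an inhibitor of the egg protease ovastacin), whose gene starts 18.9 kb downstream of the end of Ahsg, did not share this pattern. N134 tumours read 21.7, 23.5 and 20.1 FPKM, close to the 26.2, 20.8 and 22.1 FPKM of N134-RHAMMB tumours. In the metastases it was 64.0, 21.1 and 30.9 FPKM, so that metastasis 1 stood above every tumour, metastasis 3 a little above them and metastasis 2 within their range. The metastases were higher than N134-RHAMMB tumours by 0.58 ± 0.31 log2 units, which did not pass (limma adjusted p = 0.408), and than N134 tumours by 0.66 ± 0.31 (limma adjusted p = 0.261). The call rests on single libraries: without metastasis 2 the differences were 0.93 (limma adjusted p = 0.0475) and 1.003 (limma adjusted p = 0.0272), and without metastasis 1 they were 0.15 and 0.23. Library weighting also moved it past the threshold, with 0.81 (limma adjusted p = 0.0357) and 1.04 (limma adjusted p = 0.0205). Metastasis 1 held 3.03 times the Fetub of metastasis 2, whereas the highest and lowest metastasis differed by 1.09 times in Ahsg and 1.14 times in Alb.

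**Figure D2:**
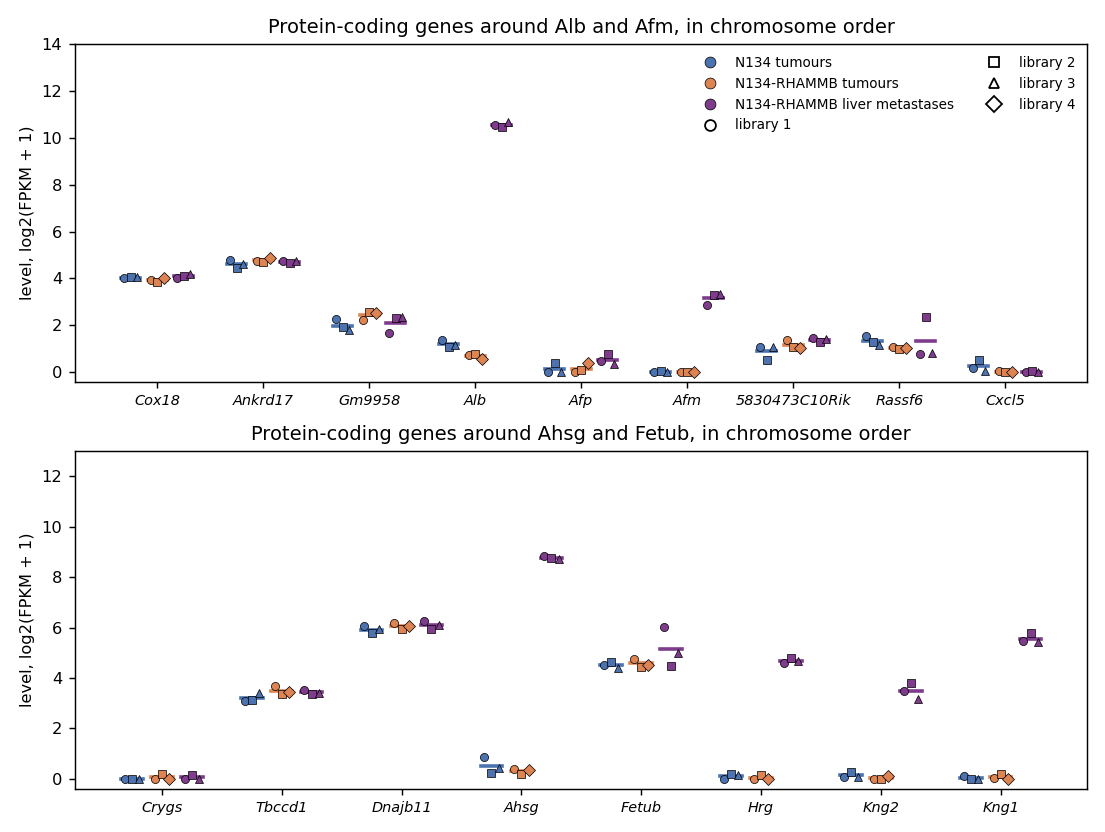
Level as log2(FPKM + 1) of the genes around Alb and Afm and around Ahsg and Fetub, in chromosome order, in the 3 groups; points are libraries and short lines are group means of the log2 values. Neighbours differ in the metastases: Alb and Afm are high but Afp between them is not, and Ahsg, Hrg, Kng2 and Kng1 are high around a Fetub that is read in all groups.

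The genes that lie beside these members, taken by position, also differed from one another. Afp, the fetal albumin relative between Alb and Afm, reached 0.262 to 0.720 FPKM in metastases and 0 to 0.300 FPKM in the tumours, and was too low to test. Ankrd17, upstream of Alb, was 21.0 to 28.2 FPKM in all 9 libraries. Dnajb11, a chaperone gene beside Ahsg, was 54.0 to 75.0 FPKM throughout. Beyond Fetub lie Hrg (histidine-rich glycoprotein) and the kininogens Kng2 and Kng1, which were 23.2 to 26.5, 8.08 to 12.9 and 42.5 to 54.0 FPKM in metastases and at most 0.126, 0.212 and 0.133 FPKM in any tumour. Among the 4 tested of 6 fetuin and albumin relatives, 3 rose against N134-RHAMMB tumours: Kng1 by 5.49, Hrg by 4.64 and Kng2 by 3.45 log2 units. These 3 passed the filter only through the metastases and so had to differ. The remaining one, Cst3 (cystatin C), was 307 to 362 FPKM in tumours and 392 to 414 FPKM in metastases, and its difference of 0.32 did not pass (limma adjusted p = 0.0644).

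Ambp encodes a precursor that is cut into alpha-1-microglobulin, a haem-binding lipocalin, and bikunin, the light chain of the inter-alpha-inhibitors. N134 tumours 1, 2 and 3 read 34.9, 53.5 and 88.3 FPKM, N134-RHAMMB tumours 1, 2 and 4 read 88.8, 53.9 and 47.2 FPKM, and the groups overlapped over nearly their whole range. Metastases 1, 2 and 3 held 148, 190.1 and 159 FPKM, and the lowest of them lay above the highest tumour. The difference was 1.57 ± 0.31 log2 units against N134 tumours (limma adjusted p = 0.00876), past the threshold under all 19 alternatives. Against N134-RHAMMB tumours it was 1.42 ± 0.31 (limma adjusted p = 0.0197), past it in 13 of 19, with adjusted p from 0.00550 to 0.532. Among the losses, leaving out N134-RHAMMB tumour 2, tumour 4 or metastasis 3 gave 1.33 (limma adjusted p = 0.0829), 1.24 (0.0850) and 1.44 (0.0554). Library weighting gave 0.92 (limma adjusted p = 0.0786), and leaving out both tumours with muscle transcripts gave 0.88 (limma adjusted p = 0.532), with N134-RHAMMB tumour 1 alone in its group and assumed to vary like the others.

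The heavy chains to which bikunin is joined were not read in the subcutaneous tumours at the level of Ambp. Of 9 genes in the list of inter-alpha-inhibitor partners and lipocalins, 6 were tested and all 6 rose in the metastases against N134-RHAMMB tumours. The list also holds Hc, the gene of complement component C5, which is neither and is among the tested genes (3.71, 5.84 and 6.25 FPKM in metastases). All 6 were under 1 FPKM in every subcutaneous tumour and passed the filter only through the metastases, so they had to differ and their count says nothing further. They included the heavy chain genes Itih3 and Itih2 (log2 differences 4.88 and 4.75). Itih4, whose product is not joined to bikunin, was 35.0, 56.5 and 42.0 FPKM in metastases (log2 difference 5.38). No gene of that list reached 1 FPKM in every subcutaneous library, and the 9 summed to 1.60 to 4.06 FPKM there against 135 to 176 FPKM in metastases.

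Ttr, the thyroxine carrier and partner of Rbp4, was abundant everywhere. N134 tumours 1, 2 and 3 held 416, 427 and 334 FPKM, N134-RHAMMB tumours 1, 2 and 4 held 328, 389.8 and 282 FPKM, and the metastases 574, 479.6 and 487 FPKM. Its group mean ranked 132, 163 and 87 of 21944 genes, and the lowest metastasis exceeded the highest tumour. Ttr was higher in metastases than in N134-RHAMMB tumours by 0.63 ± 0.14 log2 units (limma adjusted p = 0.0249), but not past the threshold against N134 tumours (0.39 ± 0.14; limma adjusted p = 0.139) or between the 2 subcutaneous groups (-0.24 ± 0.14; limma adjusted p = 0.529). The call against N134-RHAMMB held in 13 of 19 alternatives, with differences of 0.52 to 0.75 and adjusted p from 0.00290 to 0.182. Leaving out N134-RHAMMB tumour 1, tumour 4 or metastasis 1 ended it, with limma adjusted p of 0.0940, 0.0985 and 0.0950, as did fitting only the 2 groups compared (0.0513) and leaving out both tumours with muscle transcripts (0.182).

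Rbp4, the retinol carrier and an adipokine, was read at 72.4 to 117 FPKM in all 9 libraries. N134 tumours read 79.9, 86.1 and 102 FPKM, N134-RHAMMB tumours 97.6, 82.0 and 72.4 FPKM, and metastases 102, 102 and 117 FPKM. The metastases lay above all N134-RHAMMB tumours and reached into the range of N134 tumours. The differences of 0.35 ± 0.13 and 0.26 ± 0.13 log2 units did not pass (limma adjusted p = 0.198 and 0.303), nor did they in any of 19 alternatives. As a sum, adipocyte markers moved the other way. The 9 of them summed to 39.5 to 110 FPKM in subcutaneous tumours and 22.9 to 26.5 FPKM in metastases, where Adipoq and Plin1 were listed at 0. Of the 5 tested, 2 were lower in metastases than in N134-RHAMMB tumours and 3 did not pass. Among these 3, Lpl had a difference of 0.33 in the direction of Rbp4 (limma adjusted p = 0.350). The part of adipocyte markers in the Rbp4 level was not tested.

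**Figure D3:**
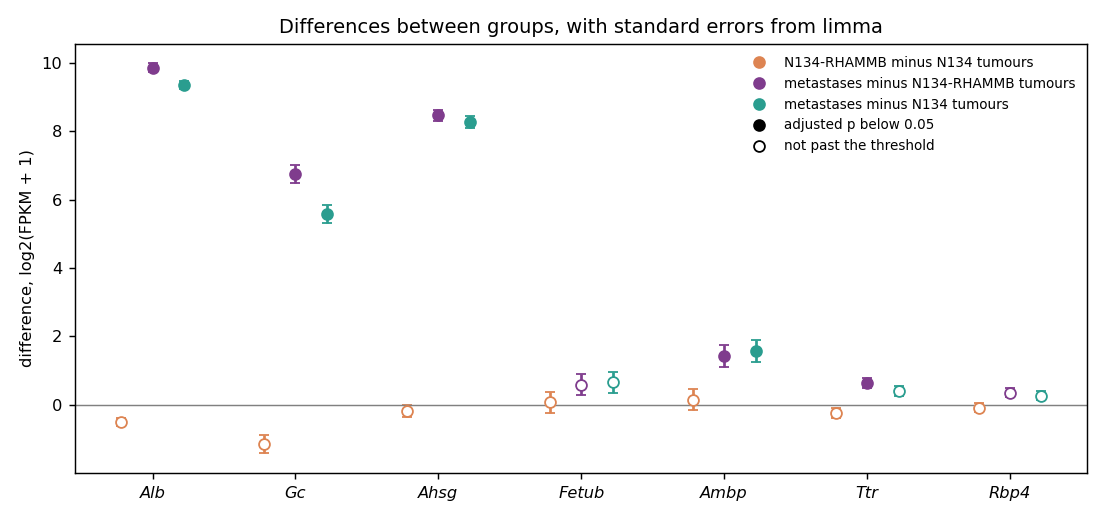
Difference in log2(FPKM + 1) of each gene other than Afm in the 3 comparisons, with bars of 1 SE from the limma fit; filled points have an adjusted p below 0.05. Alb, Ahsg and Gc differ by 5.58 or more in both metastasis comparisons, Ambp by 1.42 and 1.57, and no filled point appears between the subcutaneous groups.

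Counted together, 6 of the 8 genes were higher in metastases than in N134-RHAMMB tumours at an adjusted p below 0.05 (Alb, Ahsg, Gc, Afm, Ambp and Ttr), where 5.04% of the 12854 genes tested were, and none was lower. Ahsg and Afm passed the filter of 1 FPKM in 3 libraries only through the metastases and so had to differ. In 7 of 8 genes every metastasis exceeded every N134-RHAMMB tumour, against 8.8% of all genes tested. Over all genes 648 were higher and 195 lower, a split that became 630 and 314 after quantile normalization. Against N134 tumours 5 of 8 were higher (Alb, Ahsg, Gc, Afm and Ambp), where 5.69% of genes were, and 6 of 8 did not overlap, where 11.4% did not. Between N134-RHAMMB and N134 tumours 0 of 8 differed by limma, against 0.194% of all genes. Alb and Gc had an unadjusted p below 0.05 there and lay entirely lower in N134-RHAMMB, as did 11.3% of all genes. The 2 metastasis comparisons share the metastases, and each group of tumours serves in 2 comparisons, so these counts are not independent of each other.

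The proportions among the 8 genes were close between metastases 1, 2 and 3 for most members. Ttr was 38.1%, 34.0% and 30.3% of Alb, Ahsg 30.5%, 30.5% and 26.1%, and Gc 23.0%, 28.9% and 24.0%. Ambp followed at 11.1% ± 2.09, Rbp4 at 7.10% ± 0.281 and Fetub at 2.56% ± 1.49 (SD, n = 3). Under the skin 5 genes stood above Alb, with Ttr 260 to 586 times, Rbp4 50.1 to 150 times, Ambp 21.9 to 130 times, Fetub 13.6 to 45.9 times and Gc 2.02 to 8.19 times the Alb of the same tumour, and Ahsg (0.148 to 0.590 times) and Afm below it. After the mean level of N134-RHAMMB tumours was taken off each gene, Ttr fell to 12.0% ± 3.49 of Alb, Ambp to 6.86% ± 1.86, Rbp4 to 1.51% ± 0.481 and Fetub to 1.03% ± 1.504, while Ahsg stayed at 29.1% and Gc at 25.1%. The remainder of Fetub in metastasis 2 was -0.135%, below the mean of the tumours under the skin. The step takes off the full tumour mean, as if the metastases held undiluted and unchanged tumour RNA, which was not tested.

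**Figure D4:**
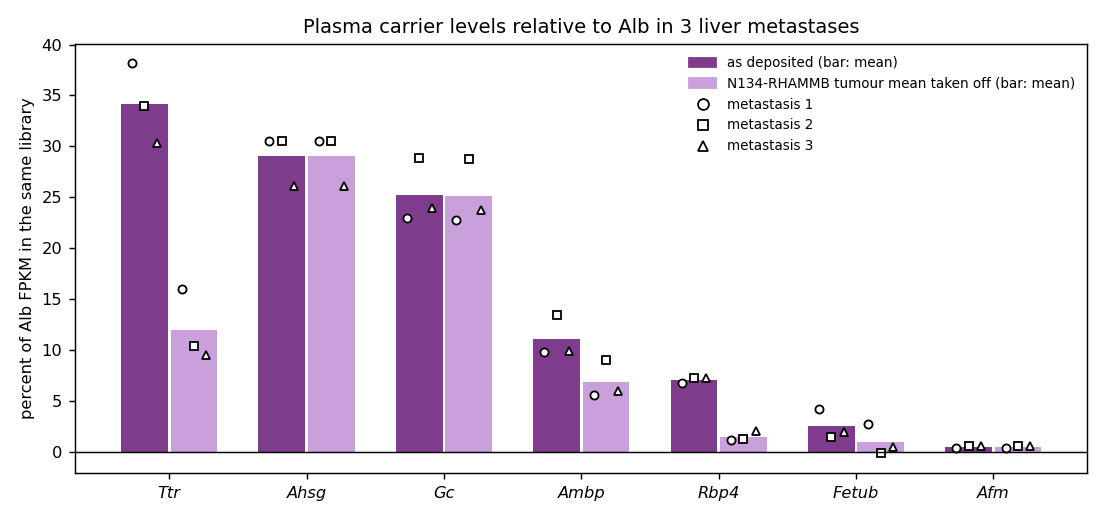
Level of each of the other genes as a percent of Alb in the same metastasis, as deposited and after the mean N134-RHAMMB subcutaneous level was taken off; points are the 3 metastases and bars their mean. Gc is 25.3% before and 25.1% after, Ahsg is 29.1% both times, and Ttr drops from 34.1% to 12.0%.

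Together the 8 genes took 0.0950% to 0.134% of all FPKM in the subcutaneous libraries and 0.674% to 0.718% in the metastases. The division by level depended on the cut-off. At 0.1 FPKM 7 of the 8 genes counted as read in every subcutaneous tumour and only Afm as read in metastases alone, while at 5 FPKM 4 did (Ttr, Rbp4, Ambp and Fetub), 3 were found in metastases alone and Gc lay between. Leaving out any 1 library changed neither the 5 nor the 2 at 1 FPKM.

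Genes that act with these carriers were not uniformly higher. Of 7 tested genes of 12 in thyroid hormone carriage and use, 4 rose against N134-RHAMMB tumours, with a median of 1.47 against -0.06 over all genes. 3 of the 4, which passed the filter only through the metastases, were the thyroxine-binding globulin gene Serpina7 (2.35), the lipogenic thyroid hormone target Thrsp (1.72) and the organic anion transporter Slco1a1, which was 9.82, 16.03 and 15.2 FPKM in metastases and listed at 0 in all 3 N134-RHAMMB tumours. Of 13 tested genes of 24 in retinol carriage and use, 4 rose and 1 fell, with a median of 0.06. The list also holds Ttpa, which carries vitamin E and not retinol, and which passed the filter, as Stra6l did, only through the metastases. The retinal dehydrogenase Aldh1a1 rose by 5.39, Ttpa by 3.90 and the Rbp4 receptor Stra6l by 2.54, and the cellular retinol-binding gene Rbp7 changed by -2.23. Of 3 tested genes of 6 in vitamin D use, the sterol 27-hydroxylase Cyp27a1 rose, from 0.780 to 1.96 FPKM in N134-RHAMMB tumours to 20.5 to 26.8 FPKM in metastases.

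Of 8 tested genes of 10 for uptake and recycling of carriers, 3 rose and 1 fell, with a median of 0.19. The asialoglycoprotein receptor subunits Asgr1 and Asgr2 rose by 4.45 and 2.77, and both passed the filter only through the metastases. The remaining riser, B2m, was at 1 FPKM or more in all 9 libraries and rose by 1.03 (limma adjusted p = 0.00193). Fcgrt, the receptor that returns albumin to the blood, spanned 7.80 to 9.19 FPKM for N134-RHAMMB under the skin and 12.3 to 14.6 FPKM for the metastases, a difference of 0.54 that did not pass (limma adjusted p = 0.0784). For N134 tumours it spanned 10.5 to 15.6 FPKM, and the metastases differed from them by 0.0041 (limma adjusted p = 0.994). Lrp2 and Cubn, which reclaim Gc and Rbp4 in kidney tubules, were at most 0.200 FPKM in every library. These last 3 genes were picked for their known role with the carriers after their values were seen.

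Of 14 tested genes of 16 listed as other plasma carriers, 12 rose and none fell, with a median of 4.04. Of the 12, 6 (Hpx and Apoh among them) passed the filter only through the metastases, and of the 8 tested genes at 1 FPKM or more in at least 1 subcutaneous tumour 6 rose. Hpx, the haem carrier, rose by 8.25 log2 units, Apoh by 6.64, the copper carrier Cp by 5.72 and Pon1 by 5.13. Among 20 liver transcription factors, 16 were tested and 7 rose, 5 of them tested only through the metastases, with a median of 0.42. The nuclear receptor Nr1i3 was listed at 0 in N134-RHAMMB tumours and was 6.34 to 9.37 FPKM in metastases, Nr1h4 rose by 2.02 and Ppara by 1.55. Some factors whose letters were searched in the promoters were chosen for that with values known. Hnf4a was read in all 9 libraries at 29.3 to 41.4 FPKM (difference 0.07; limma adjusted p = 0.888) and Foxa2 at 26.5 to 37.3 FPKM (-0.23; 0.368). Foxa3 rose by 1.28 and Cebpa by 1.05, the latter from 1.30 to 2.47 FPKM in N134-RHAMMB tumours to 4.73 to 5.90 FPKM in metastases. Between N134-RHAMMB and N134 tumours no gene of these lists passed.

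Most markers of hepatocytes that are not secreted were higher in the metastases. Of 20, 19 were tested and 18 rose in metastases against N134-RHAMMB tumours, the exception being Hal, with a median of 2.81 in which 2 genes listed at 0 in those tumours enter at their fitted values. Of the 18, 8 passed the filter only through the metastases, and of the 11 tested genes at 1 FPKM or more in at least 1 subcutaneous tumour 10 rose. Their sum was 29.0 to 46.0 FPKM in subcutaneous tumours and 664 to 767 FPKM in metastases. Cyp2e1, a hepatocyte cytochrome, went from 0.203 to 2.55 FPKM in N134-RHAMMB tumours to 174 to 239 FPKM in metastases, and the bile acid transporter Slc10a1 had 0 FPKM listed for every tumour under the skin and 5.18 to 7.19 FPKM for the metastases. Of the 20, 5 stood at 1 FPKM or more in all 6 subcutaneous tumours and 18 did in all 3 metastases. In bulk libraries more cells of a type and more RNA per cell cannot be told apart, and the part of these cells in the carriers' levels was not tested. Alpha cell markers other than Gc did not rise: of the 6 tested of 7, 1 rose, Gc itself, and the amino acid transporter Slc38a5 fell by 0.71.

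The genes whose levels over the 9 libraries were most like those of Alb were Cyp2c70, Hpx and Serpina3k, each with a Pearson r of 0.999 among 9775 candidates. For Ttr they were Oplah (r = 0.930), Dhrs3 (0.929) and Slc38a4 (0.928), and for Rbp4 Abcg2 (0.845), Adtrp (0.843) and Hagh (0.829). Slc38a4, a further amino acid transporter, was 30.4 to 52.9 FPKM in the tumours and 59.3 to 72.4 FPKM in metastases. These values describe 9 libraries that share 3 groups, and a gene high in all metastases is close to Alb by that fact.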

How the data were processed

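The deposited table gives FPKM per protein-coding gene for 9 libraries, estimated by the authors with Cufflinks 2.1.1 after STAR 2.5.2 alignment to GRCm38 and bcl2fastq 2.19, per the submitters' processing notes. Strand handling was not given in the sources used here. From 22053 rows, 102 that repeat a symbol and 7 with a failed mark were left out, leaving 21944 genes. A low-data mark, carried by 40 rows, was not a reason to leave a row out. All 72 status words of the 8 genes were OK.

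Values were tested as log2(FPKM + 1) with limma 3.58.1 (R 4.3.3; 1 model over 9 libraries, trended prior variance, 2-sided) in 12854 genes at 1 FPKM or more in at least 3 libraries, with Benjamini-Hochberg adjustment over them and a threshold of 0.05; the procedure was tested on simulated data. The table holds no counts, so no counting intervals are given, and depth and fragments are estimates from the steps of low values and the longest transcript. Genes outside the 8 were named as the 2 to 4 with the largest difference in each list, the nearest in Pearson r, or neighbours by position. Some results on listed genes are not reported here. The members and lists were chosen with earlier results of these data known.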

Additional observations from a re-analysis of the deposited data

How the results depend on the processing

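The 8 genes were recomputed under 19 alternatives (pseudocount, filter, scaling, prior, library weights, block, groups fitted, each library left out, and, chosen after seeing the data, both N134-RHAMMB tumours with muscle transcripts left out). Higher levels of Alb and Gc in metastases passed in every one. Those of Ahsg did too, and those of Afm wherever it was tested. With a filter of a mean of 5 FPKM Afm was not. Ahsg and Afm passed the main filter only through the metastases and had to differ, so their passing adds no support. Between 4 and 7 of the 8 genes were higher in metastases in any alternative. Between the subcutaneous groups 0 to 2 members passed, the 2 being Alb (-0.45; limma adjusted p = 0.00694) and Gc (-1.11; 0.00532) under library weights.

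Small subcutaneous differences that did not pass changed sign: Rbp4 (-0.09) became 0.038 with library weights, 0.091 with the replicate block and 0.13 without both muscle-bearing tumours, Afm became 0.021 with the block, and with 1 library left out Rbp4 ranged from -0.20 to 0.0089, Ambp from -0.17 to 0.49 and Fetub from -0.020 to 0.14. Ttr in metastases against N134 tumours passed with library weights (0.49; limma adjusted p = 0.0405).

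Counts over all genes moved more. Between the subcutaneous groups the 25 became 15 with the mean filter, 2629 with library weights, 1 with the replicate block, 169 with 2 groups fitted, 1 without both muscle-bearing tumours and 0 to 193 with 1 library left out. Against N134-RHAMMB tumours the 843 became 347 with the mean filter, 1950 with library weights (1014 higher, 936 lower), 504 without both tumours and 650 to 1137 with 1 library left out. Against N134 tumours the 1276 became 594 with the mean filter and 882 to 1571 with 1 library left out. The causes were not tested, beyond the fewer genes or samples. Levels per Alb after subtraction moved to 12.0% for Ttr, 6.86% for Ambp, 1.51% for Rbp4 and 1.03% for Fetub.

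Same-numbered libraries correlated by -0.00270 to 0.102 in their deviations from group means, so the numbers were not taken as pairs. The replicate block, in which library 4 is fitted exactly, gave 0.59 (limma adjusted p = 0.0889) for Ttr and 1.08 (0.203) for Ambp against N134-RHAMMB tumours, and changed no other call of the 8 genes. Depth limits Ahsg and Afm under the skin, where an estimated 0 to 20 fragments stand behind a value.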
